A study of Danio rerio with 6 samples.

Results

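The genes described here encode the mitochondrial carrier family: the solute carriers named slc25a and the uncoupling proteins named ucp. They were taken as every row of the deposited table whose gene name begins, in lower case, with slc25a or ucp followed by a digit, which gave 59 of 24470 genes. A gene was tested where its normalized counts averaged 10 or more over the 6 libraries, which held for 56 of the members and 20352 genes in all. The 3 members left out for low values were slc25a13, slc25a22b (2.25 to 10.1 normalized counts in treated and 0 to 3.33 in control libraries) and slc25a24l (0 to 6.68 in treated and 1.11 to 7.05 in control libraries). Rows for SLC25A10 and SLC25A29, written in capitals, fall outside the naming rule. Looked up by gene ID in a reference list of gene names, all 59 members were found and 43 had the same symbol, capitals aside. Symbols here are those of the deposited table, and roles, copies and neighbours were assigned by them.

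Mitochondrial carriers sit in the inner mitochondrial membrane, where each moves a particular metabolite between the matrix and the cytosol, most often in exchange for another. They supply the ATP synthase with ADP and phosphate, move citrate, malate, amino acids, cofactors and nucleotides, and so join the metabolism of the matrix to that of the cell. Uncoupling proteins belong to the same family. The best known of them, mammalian UCP1, lets protons leak back into the matrix so that energy is released as heat. Itaconate is a dicarboxylate made in the matrix, and the citrate, dicarboxylate and oxoglutarate carriers of mammals have been reported to accept it.

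RNA was sequenced from whole zebrafish larvae of the transgenic line Tg(Brn3C:mGFP), in which membrane GFP marks hair cells. The treated group was 3 libraries of larvae given 2.5 µM 4-octyl itaconate, a cell-permeable itaconate ester, for 48 h beginning 3 days after fertilization. The reference was 3 libraries of larvae labelled control, and every library was made from larvae of the same line at 5 days. The sources used here do not give the controls' vehicle or say whether libraries of a group came from separate clutches. The p-values therefore set the difference between groups only against the spread of these libraries within groups, and that spread may be technical. The libraries are of whole larvae, so fewer cells of a type and less RNA per cell cannot be told apart.

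Recovered depth was 18017272 to 23507208 reads in treated libraries and 14763897 to 21096650 reads in control libraries. The second principal component, with 6.83% of the variance, set treated replicate 1 apart from the other treated libraries, so results that rest on it are given without it as well. Markers of whole organs moved with the treatment. All 15 skeletal muscle markers were higher, with a summed 9.47% to 11.9% of reads in treated libraries and 1.42% to 1.44% in control libraries. Of 16 liver marker rows, 15 were higher (1.70% to 1.81% of reads in treated, 0.0493% to 0.0594% in control), as were all 15 markers of intestine and pancreas (0.731% to 1.25% against 0.0186% to 0.0256%), all 6 heart markers (0.00889% to 0.0112% against 0.00156% to 0.00257%) and 8 of 10 red blood cell markers (0.219% to 0.504% against 0.0357% to 0.0473%). In contrast, 12 of 15 neuron markers were lower (0.0456% to 0.0734% of reads in treated, 0.515% to 0.575% in control), 7 of 9 eye markers were lower and 1, rpe65a, was higher (0.0432% to 0.227% against 0.583% to 0.950%), and all 13 mitochondrially encoded genes were lower (4.90% to 5.70% against 21.2% to 27.2%). Of 13 hair cell marker rows, 6 were higher and 3 lower (0.0289% to 0.0453% against 0.0094% to 0.0139%). Of the markers called higher, ins, nppb and slc17a8 (control means 9.96, 3.25 and 6.98) passed the testing limit of 10 only through their treated libraries. The hair cell marker pou4f3 (treated mean 5.60), called lower, passed that limit only through its control libraries. No marker was at 0 in all libraries of a group, and the part of these organ markers in the carrier results was not tested.

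Carrier genes took a larger share of the reads in treated larvae, and 1 abundant gene supplied most carrier reads in every library. Together the 59 members held 0.934%, 1.08% and 1.07% of reads in treated replicates 1, 2 and 3, against 0.470%, 0.496% and 0.492% in control replicates 1, 2 and 3. These are shares of all reads, of which mitochondrially encoded genes held 4.90% to 5.70% in treated and 21.2% to 27.2% in control libraries. The share of any other gene rises with that fall, and its part in the values above was not separated. The ADP/ATP carrier gene slc25a5 alone supplied 62.4% to 68.8% of the member reads in treated libraries and 57.4% to 59.0% in control libraries, as a share of reads that is not corrected for gene length. With limma's moderated test and a Benjamini-Hochberg adjusted p of 0.05, 28 of the 56 tested members were higher and 15 were lower in treated larvae, and 13 did not pass. The higher members include slc25a29, slc25a37 and slc25a44a, which met the testing limit only through their treated libraries. Among all tested genes 69.3% passed, 35.0% higher and 34.3% lower, so a large count of changed members is in itself near what the whole table shows. The median log2 fold change of tested members was 0.88, against 0.01 for all tested genes. Without treated replicate 1, 30 members were higher and 15 lower, with 73.2% of all genes called, and 41 members were called in both fits in the same direction. The groups did not overlap in 47 of the 56, against 74.1% of all genes: treated libraries were all above control libraries in 28 (37.4% of all genes) and all below in 19 (36.8% of all genes). Scaling to the genes that the mitochondrial genome does not encode gave 24 higher and 19 lower members, with 5243 higher and 8888 lower genes in all, against 7115 and 6983 with the deposited scaling.

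**Figure D1:**
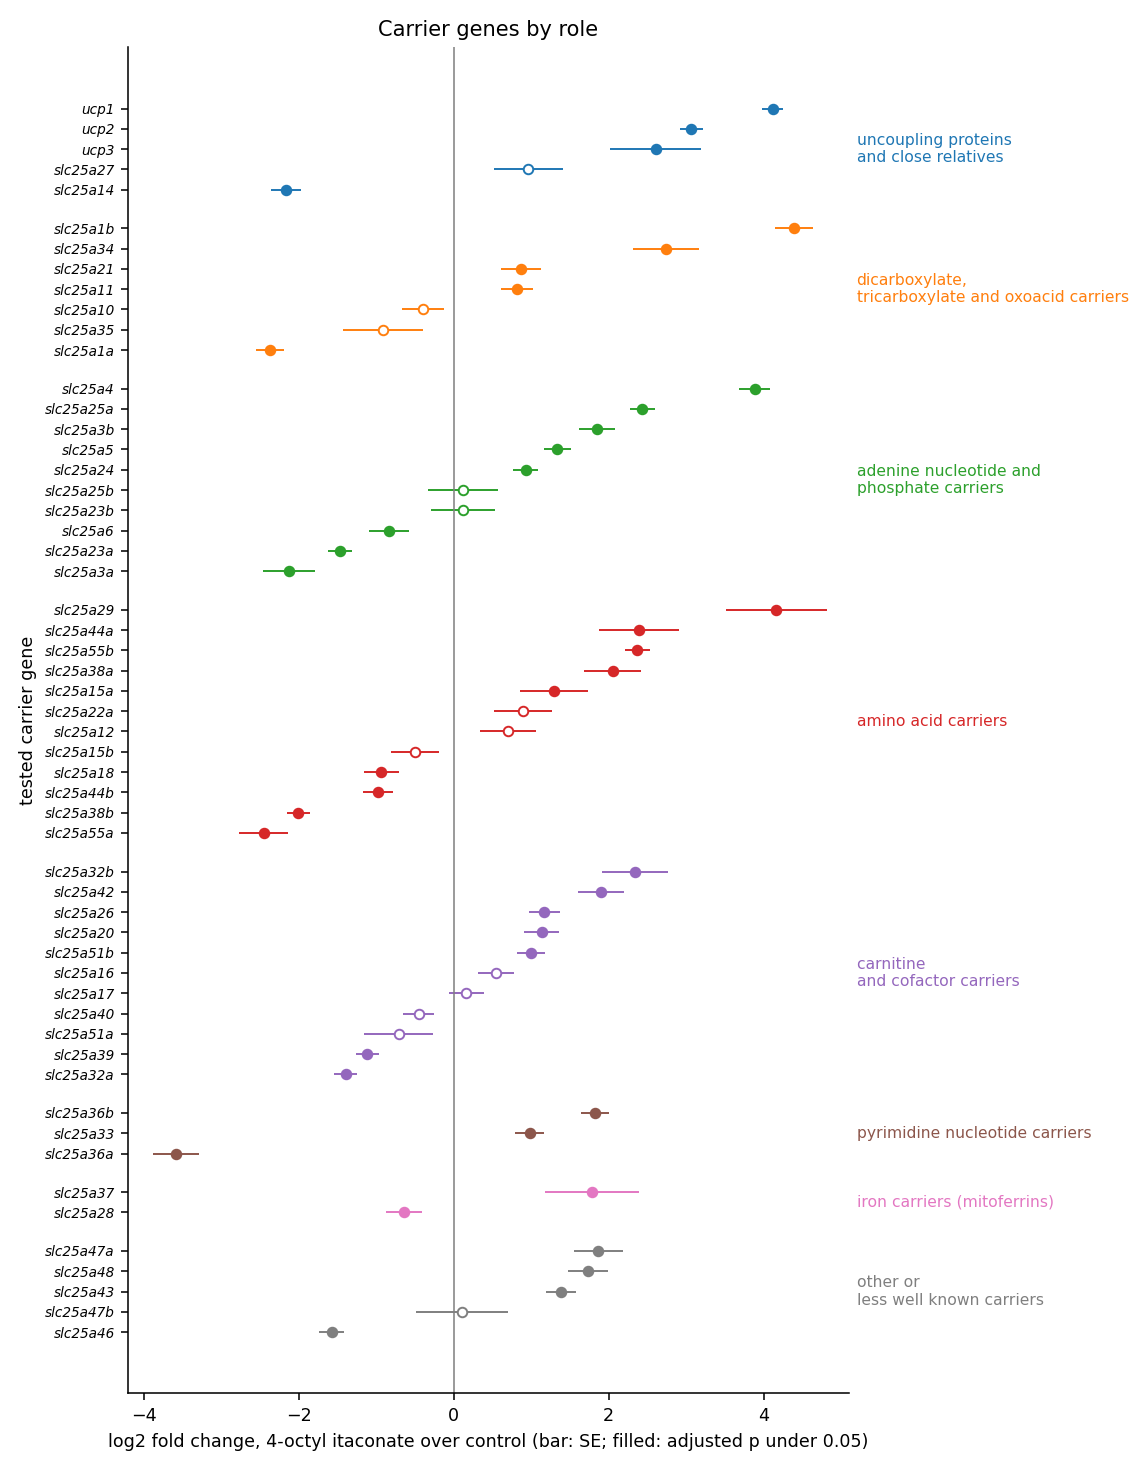
Log2 fold change (x axis, 4-octyl itaconate over control) of 55 tested carrier genes (y axis), grouped by role. Bars are standard errors from limma and filled points passed an adjusted p of 0.05; the values run between -3.58 for slc25a36a and 4.39 for slc25a1b, and every role group has genes on both sides of 0.

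The 3 uncoupling protein genes all rose, whereas of their relatives slc25a14 fell and slc25a27 did not pass. In fish the UCP1 counterpart has been found mainly in liver (in common carp), whereas in mammals UCP1 is the heat-producing protein of brown fat. Expression of ucp1 stood at 4499, 5248 and 4809 normalized counts in treated larvae, against 298, 260.0 and 276 in control larvae. Its libraries agree closely within each group, and the lowest treated value lies far above the highest control value. The gene rose 17.5-fold (4.12 on the log2 scale with an SE of 0.14; limma adjusted p = 5.33e-07, 3 of 3 treated libraries above all controls). In the same larvae 15 of 16 liver marker rows rose.

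Transcripts of ucp2, a widely expressed relative tied in mammals to the control of reactive oxygen and fuel choice, were at 7347, 8632 and 9632 normalized counts in treated and 962, 1016 and 1054 in control larvae. That is an 8.45-fold rise with no overlap between groups (3.07 on the log2 scale with an SE of 0.14; limma adjusted p = 1.24e-06). The third gene, ucp3, is known from mammalian skeletal muscle. It stood at 1918 normalized counts in treated replicate 1 but at 327 and 367 in treated replicates 2 and 3, against 116, 92.2 and 93.0 in controls. All treated libraries lie above all controls, yet the size of the rise is set by 1 library: 8.66-fold with it (2.61 on the log2 scale with an SE of 0.58; limma adjusted p = 0.00353) and 3.45-fold without it (log2 fold change 1.78, adjusted p = 2.19e-05). In the RefSeq annotation of assembly GRCz12tu, ucp3 and ucp2 are next to each other among protein-coding genes. Of the 3 neighbouring pairs of members found there (58 of the 59 members were matched by symbol), the others are slc25a5 with slc25a43 and slc25a29 with slc25a47a. All 6 of these genes rose, as did 50% of tested members and 35.0% of all tested genes. Among them, slc25a29 passed the testing limit only through its treated libraries. Neighbouring genes outside the family were not compared, and a link between position and change was not tested.

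Proteins of slc25a14 and slc25a27 are called uncoupling proteins by sequence and are known mainly from brain in mammals. The slc25a14 gene had 214, 355 and 287 normalized counts in treated larvae and 1296, 1236 and 1246 in control larvae. It fell 4.41-fold with no overlap (-2.17 on the log2 scale with an SE of 0.20, limma adjusted p = 1.8e-05), in larvae in which 12 of 15 neuron markers were also lower. The slc25a27 gene was low, with 25.8, 41.6 and 60.1 normalized counts in treated and 16.0, 15.6 and 32.4 in control libraries. Its groups overlap and it did not pass (0.96 on the log2 scale with an SE of 0.45; limma adjusted p = 0.0821), although it passed without treated replicate 1 (1.27, adjusted p = 0.0247) or without control replicate 3 (1.29, adjusted p = 0.0399). The 5 genes of this group together took 0.0632% to 0.0721% of reads in treated libraries and 0.0127% to 0.0143% in control libraries.

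**Figure D2:**
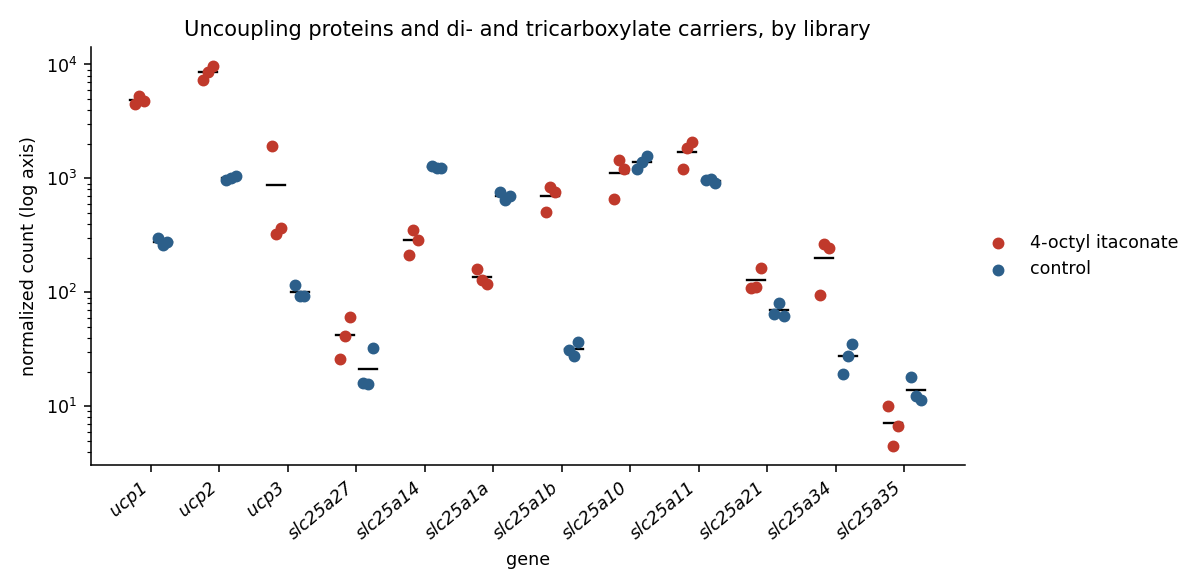
Normalized counts (log y axis) of the uncoupling protein genes and the di- and tricarboxylate carrier genes (x axis), with 1 point per library, 4-octyl itaconate left of control, and a bar at each group's mean. The points of ucp1 and ucp2 form separate tight clusters, treated replicate 1 stands at 1918 for ucp3, and slc25a1a and slc25a1b lie in opposite order in the 2 groups.

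Among carriers of dicarboxylates, tricarboxylates and oxoacids, both copies of the citrate carrier gene changed, in opposite directions. Citrate carriers export citrate, from which the cytosol makes acetyl-CoA for lipids. The slc25a1b copy had 507, 832 and 764 normalized counts in treated and 31.1, 27.8 and 36.6 in control larvae, a 22.0-fold rise (4.39 on the log2 scale with an SE of 0.24; limma adjusted p = 2.03e-06) and the largest log2 fold change among the tested members. The slc25a1a copy had 161, 128 and 117 in treated and 763, 642 and 706 in control larvae, 5.19-fold lower (-2.38 on the log2 scale with an SE of 0.18; limma adjusted p = 7.45e-06). Neither copy overlaps between groups, so that slc25a1a made up 24.2%, 13.3% and 13.3% of the pair's normalized counts in treated larvae, against 96.1%, 95.9% and 95.1% in control larvae.

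The oxoglutarate carrier gene slc25a11, whose protein exchanges oxoglutarate for malate in the malate-aspartate shuttle, had 1217, 1843 and 2103 normalized counts in treated and 959, 996 and 906 in control larvae. It rose 1.80-fold without overlap (0.81 on the log2 scale with an SE of 0.20; limma adjusted p = 0.00624), but scaling to genes not encoded by the mitochondrial genome left 0.37 (adjusted p = 0.152). For slc25a10, the carrier of malate and succinate in exchange for phosphate, the values were 666, 1453 and 1205 in treated and 1212, 1384 and 1572 in control larvae. These groups overlap, treated replicate 1 is the lowest library, and the difference did not pass (-0.39 on the log2 scale with an SE of 0.27; limma adjusted p = 0.22), and was -0.06 without that library. With the scaling just named it was -0.84 (adjusted p = 0.0282). The capitalised row SLC25A10 was far lower, at 15.7, 19.1 and 17.2 normalized counts in treated and 3.01, 3.33 and 4.23 in control larvae, and rose 4.92-fold (limma adjusted p = 0.00578). With a control mean of 3.52, this row passed the testing limit of 10 only through its treated libraries. The sources used here do not say how reads shared by it and slc25a10 were divided.

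Of the other 3 genes of the group, 2 rose. The oxodicarboxylate carrier gene slc25a21, for intermediates of lysine breakdown, rose 1.85-fold (log2 fold change 0.87; limma adjusted p = 0.0142), with 109, 112 and 165 normalized counts in treated and 65.2, 81.1 and 62.0 in control larvae, and without treated replicate 3 the adjusted p was 0.062. The gene slc25a34, whose cargo is little known, had 94.2, 264 and 244 in treated and 19.0, 27.8 and 35.2 in control larvae. It rose 7.35-fold (2.74 on the log2 scale with an SE of 0.43; limma adjusted p = 0.000449), with treated replicate 1 the lowest of the treated libraries. The related slc25a35 was scarce, at 4.50 to 10.1 in treated and 11.3 to 18.0 in control libraries, and did not pass.

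Genes that feed ADP and phosphate to the ATP synthase carried most of the family's reads, and their dominant members rose. This role group took 0.797% to 0.922% of all reads in treated and 0.314% to 0.336% in control libraries. Of its 10 tested genes 5 rose (50%) and 3 fell (30%), against 35.0% higher and 34.3% lower among all tested genes. The slc25a4 gene, whose mammalian counterpart ANT1 is the ADP/ATP carrier of heart and skeletal muscle, had 19246, 25208 and 32234 normalized counts in treated larvae, against 1798, 1482 and 1818 in control larvae. It rose 15.04-fold without overlap (3.88 on the log2 scale with an SE of 0.20; limma adjusted p = 1.59e-06), and all 15 skeletal muscle markers and all 6 heart markers rose in the same larvae. The slc25a5 gene, counterpart of the ADP/ATP carrier of dividing and many other cells in mammals, had 142344, 138840.4 and 149562 in treated and 57060.4, 53177 and 60383 in control larvae. It rose 2.52-fold (1.34 on the log2 scale with an SE of 0.17; limma adjusted p = 0.000154), and quantile normalization, which sets the highest values of all libraries equal, left 0.05 (adjusted p = 0.733). The third ADP/ATP carrier gene, slc25a6, was scarce and went the other way, with 59.4, 87.7 and 55.4 in treated and 107, 130.0 and 119.8 in control larvae. It fell 1.76-fold (-0.83 on the log2 scale with an SE of 0.26; limma adjusted p = 0.0169), a call lost without treated replicate 3 (adjusted p = 0.0587), without control replicate 2 (0.0596) and with upper-quartile scaling (0.104). These 3 genes encode similar proteins, and the sources used here do not say how reads that match more than 1 of them were assigned.

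**Figure D3:**
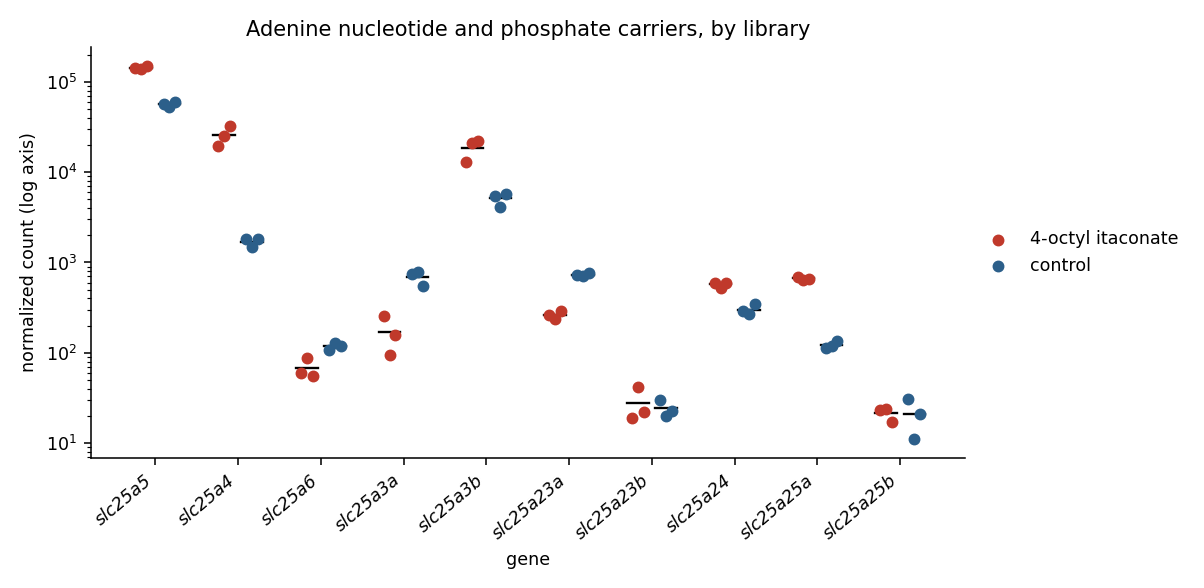
Normalized counts (log y axis) of the adenine nucleotide and phosphate carrier genes (x axis), with 1 point per library, 4-octyl itaconate left of control, and a bar at each group's mean. The slc25a4 libraries lie at 19246 to 32234 in treated and 1482 to 1818 in control larvae, while slc25a3a and slc25a3b separate in opposite directions.

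The phosphate carrier also changed its balance of copies. The abundant copy slc25a3b had 12915, 21214 and 21849 normalized counts in treated and 5506, 4092 and 5741 in control larvae, 3.65-fold higher (1.84 on the log2 scale with an SE of 0.23; limma adjusted p = 0.000124). The copy slc25a3a had 254, 93.4 and 156 in treated and 738, 774 and 544 in control larvae, 4.08-fold lower (-2.12 on the log2 scale with an SE of 0.33; limma adjusted p = 0.000476). Among the calcium-regulated ATP-Mg/phosphate carriers, which adjust the matrix pool of adenine nucleotides, slc25a25a rose 5.42-fold, with 691, 646 and 664 in treated and 114, 118 and 137 in control larvae (limma adjusted p = 3.83e-06). The gene slc25a24 rose 1.903-fold, with 521 to 599 in treated and 269 to 343 in control libraries (limma adjusted p = 0.000878). In contrast slc25a23a fell 2.77-fold, with 263, 234 and 293 in treated and 718, 708 and 761 in control larvae (limma adjusted p = 4.16e-05). The copies slc25a23b and slc25a25b stayed between 11.1 and 41.6 normalized counts with overlapping groups, and did not pass.

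Of 12 tested amino acid carrier genes, 5 rose (41.7%) and 4 fell (33.3%), near the 35.0% higher and 34.3% lower among all tested genes. Those that rose include slc25a29 and slc25a44a (control means 1.94 and 7.68), which passed the testing limit only through their treated libraries. The group as a whole took fewer reads, 0.0257% to 0.0273% in treated and 0.0645% to 0.0665% in control libraries. That lower share lay in slc25a55a, a carrier gene whose cargo is not given here. Its values were 3397, 1280.1 and 1572 normalized counts in treated and 10793, 9324 and 11141 in control larvae, 5.00-fold lower (-2.45 on the log2 scale with an SE of 0.32; limma adjusted p = 0.000147), with treated replicate 1 the highest treated library. Its partner slc25a55b had 943, 830.2 and 955 in treated and 196, 156 and 176 in control larvae, and rose 5.17-fold (2.37 on the log2 scale with an SE of 0.16; limma adjusted p = 4.35e-06). The glutamate carrier gene slc25a18, found in astrocytes of mammals, fell 1.91-fold, with 127, 135 and 91.6 in treated and 232, 252 and 190.3 in control larvae (limma adjusted p = 0.00512). The related slc25a22a, at 51.6, 135 and 85.0 in treated and 39.1, 55.6 and 40.9 in control larvae, had a log2 fold change of 0.90 that did not pass (limma adjusted p = 0.0565) but did without treated replicate 1 (1.24, adjusted p = 0.00505).

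The aspartate-glutamate carrier gene slc25a12, the other transporter of the malate-aspartate shuttle, had 832, 2059.7 and 2578 normalized counts in treated and 1086, 948 and 989 in control larvae. Treated replicate 1 lies below the lowest control while the other two treated libraries lie above every control, and the difference did not pass with all libraries (0.71 on the log2 scale with an SE of 0.36; limma adjusted p = 0.11). Without treated replicate 1 it was 1.19 (adjusted p = 2.43e-05), and edgeR on the recovered reads of all libraries called it (0.89, adjusted p = 0.0449). Its relative slc25a13, encoding the citrin of mammalian liver, was listed at 0, 0 and 24.8 in treated and 5.01, 26.7 and 0 in control larvae and was not tested.

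The glycine carrier, which brings glycine into mitochondria for heme synthesis, was another case of copies moving apart. The copy slc25a38a had 95.3, 126 and 91.6 normalized counts in treated and 36.1, 14.4 and 26.8 in control larvae, a 4.05-fold rise (limma adjusted p = 0.00104). The copy slc25a38b had 164, 175 and 190.0 in treated and 736, 691 and 703 in control larvae, a 4.03-fold fall (limma adjusted p = 7e-06). Branched-chain amino acid carriers did likewise: slc25a44a rose 5.35-fold at low counts (30.3, 52.9 and 40.1 in treated, 7.02, 3.33 and 12.7 in control larvae; limma adjusted p = 0.00291), and slc25a44b, at 186, 270.0 and 264 in treated and 431, 487 and 488 in control larvae, fell 1.95-fold (limma adjusted p = 0.00168). The control mean of slc25a44a, 7.68, is under the testing limit, which the gene passed only through its treated libraries.

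The basic amino acid carrier gene slc25a29 had 34.8, 52.9 and 44.9 normalized counts in treated larvae and very few in control larvae, at 3.01, 0 and 2.82. That was a 22.7-fold rise with a log2 fold change of 4.16 (SE 0.65, limma adjusted p = 0.000449), or 3.51 without control replicate 2. The control mean of slc25a29, 1.94, is under the testing limit, which the gene passed only through its treated libraries. The capitalised row SLC25A29 showed the same order, with 15.7, 31.5 and 47.7 in treated and 0, 1.11 and 1.41 in control larvae (limma adjusted p = 0.000597). With a control mean of 0.84, this row too passed the testing limit only through its treated libraries. The ornithine carrier copy slc25a15a, needed for the urea cycle, rose 2.88-fold with 142, 49.5 and 46.8 in treated and 26.1, 30.0 and 26.8 in control larvae (limma adjusted p = 0.0262). This call rests on few libraries: without treated replicate 1 the rise was 1.74-fold (adjusted p = 0.0572), and without control replicate 1, 2 or 3 the adjusted p was 0.0696, 0.0556 and 0.0627. It was also lost under quantile normalization (0.0811) and scaling to genes not mitochondrially encoded (0.104). Its partner slc25a15b did not pass, at 32.5 to 40.5 in treated and 40.9 to 68.9 in control libraries.

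Among 12 carriers of carnitine and cofactors, 5 rose (41.7%) and 3 fell (25%), against 35.0% higher and 34.3% lower among all tested genes. The carnitine-acylcarnitine carrier gene slc25a20, which lets long-chain fatty acids reach beta-oxidation, had 895, 1547 and 1602 normalized counts in treated and 614, 543 and 627 in control larvae, and rose 2.27-fold (1.13 on the log2 scale with an SE of 0.23; limma adjusted p = 0.00191). The coenzyme A carrier gene slc25a42 rose 3.90-fold, with 89.7, 157 and 136 in treated and 31.1, 28.9 and 38.1 in control larvae (limma adjusted p = 0.000426). The S-adenosylmethionine carrier gene slc25a26 rose 2.27-fold, at 229 to 299 in treated and 105 to 131 in control libraries (limma adjusted p = 0.000696). In all 3 of these genes, each called higher, every treated library lay above every control library, as in 37.4% of all tested genes.

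Cofactor carriers that fell included the glutathione carrier slc25a39 and slc25a32a. Values of slc25a39 were 363, 297 and 327 normalized counts in treated and 707, 711 and 717 in control larvae, 2.16-fold lower (limma adjusted p = 0.000167). Its partner in glutathione transport, slc25a40, did not pass although its groups do not overlap (108, 149.6 and 125 in treated, 177, 161 and 182 in control larvae; log2 fold change -0.45, limma adjusted p = 0.075). The folate and flavin carrier copies divided: slc25a32a, at 826, 655 and 656 in treated and 1917, 1970.0 and 1718 in control larvae, fell 2.62-fold (limma adjusted p = 4.74e-05), and slc25a32b, at 71.7, 152 and 157 in treated and 24.1, 34.4 and 14.1 in control larvae, rose 5.24-fold (limma adjusted p = 0.0011). For the NAD carrier, slc25a51b rose 2.003-fold (324 to 395 in treated, 160.0 to 204 in control libraries; limma adjusted p = 0.00106) and slc25a51a, at 7.64 to 15.7 in treated and 16.9 to 22.1 in control libraries, did not pass. The peroxisomal carrier gene slc25a17, at 124 to 181 in treated and 115 to 156 in control libraries, did not pass either (log2 fold change 0.16). The gene slc25a16, at 279 to 514 in treated and 249 to 301 in control libraries, did not pass with all libraries (log2 fold change 0.54, limma adjusted p = 0.0656) and passed without treated replicate 1 (0.78, adjusted p = 0.0022).

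Pyrimidine nucleotide carriers, which supply mitochondrial DNA and RNA synthesis, held the largest fall among the tested members. The slc25a36a gene had 789, 369 and 339 normalized counts in treated and 6181, 5245 and 5280.1 in control larvae, 11.2-fold lower (-3.58 on the log2 scale with an SE of 0.29; limma adjusted p = 1.05e-05). Its partner slc25a36b had 471, 632 and 689 in treated and 166, 163 and 168 in control larvae, 3.60-fold higher (1.82 on the log2 scale with an SE of 0.19; limma adjusted p = 3.57e-05). The third gene, slc25a33, known in mammals to respond to insulin-like growth factor, rose 2.01-fold, with 567, 759 and 917 in treated and 377, 354 and 385 in control larvae (limma adjusted p = 0.00176). In the same larvae all 13 mitochondrially encoded genes and 12 of 15 neuron markers were lower, and a link of either to slc25a36a was not tested.

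The mitoferrins import iron for heme and iron-sulfur clusters, slc25a37 in developing red cells and slc25a28 in other tissues. Values of slc25a28 were 595, 1066 and 1009 normalized counts in treated and 1457, 1189 and 1408 in control larvae, 1.52-fold lower (-0.64 on the log2 scale with an SE of 0.23; limma adjusted p = 0.0313). Without treated replicate 1, its lowest library, the log2 fold change was -0.38 (limma adjusted p = 0.0236). The call with all libraries was lost without control replicate 1 (adjusted p = 0.1) or 3 (0.0911), under upper-quartile scaling (0.201), under quantile normalization (0.264) and without limma's intensity trend (0.0704). Expression of slc25a37 was very low, at 28.0, 13.5 and 8.59 in treated and 5.01, 3.33 and 2.82 in control larvae, and 4.49-fold higher (limma adjusted p = 0.0264), or 2.97-fold without treated replicate 1 (adjusted p = 0.0999). Leaving out treated replicate 2, control replicate 2 or control replicate 3 also ended that call (adjusted p = 0.0546, 0.0587 and 0.065), as did quantile normalization (0.0767) and scaling to genes not mitochondrially encoded (0.0673). The control mean of slc25a37, 3.72, is under the testing limit of 10, which the gene passed only through its treated libraries. In the same larvae 8 of 10 red blood cell markers rose.

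The remaining carriers are less well understood. The gene slc25a48, linked to choline import in mammals, had 715, 421 and 387 normalized counts in treated and 156, 120.0 and 166 in control larvae, 3.44-fold higher (1.73 on the log2 scale with an SE of 0.26; limma adjusted p = 0.000364). The gene slc25a43, of unknown cargo, rose 2.66-fold, with 647, 429 and 492 in treated and 191, 207 and 190.3 in control larvae (limma adjusted p = 0.000209). The gene slc25a47a, whose mammalian counterpart is found in liver, rose 3.67-fold, with 88.6, 75.4 and 95.5 in treated and 32.1, 18.9 and 19.7 in control larvae (limma adjusted p = 0.000709). Its partner slc25a47b, at 5.60 to 20.2 in treated and 7.78 to 16.0 in control libraries, did not pass. The outer membrane protein of slc25a46 serves mitochondrial shape and lipid exchange, not metabolite transport. That gene fell 2.98-fold, with 231, 213 and 186 in treated and 579, 639 and 655 in control larvae (-1.57 on the log2 scale with an SE of 0.16; limma adjusted p = 3.57e-05).

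Zebrafish keep 2 copies of many carrier genes, and the copies changed by unequal amounts. Names that differ only in a closing a or b gave 12 pairs with both copies tested. In each library the log2 difference between copy a and copy b was taken, each as normalized count plus 1, and was compared between groups with limma. With the fit and the Benjamini-Hochberg adjustment made over all 2431 such pairs in the table, all 12 carrier pairs passed an adjusted p of 0.05, against 59.9% of all pairs; names alone make a pair here, so some pairs of the table may not be duplicate genes. The difference between copies shifted by 1.59 to 6.77 on the log2 scale (median 3.56), against a median of 1.21 over all pairs. In 7 of the 12 the copies were themselves called in opposite directions, against 14.2% of all pairs. These were slc25a1, slc25a3, slc25a32, slc25a36, slc25a38, slc25a44 and slc25a55, and the count was also 7 without treated replicate 1. The slc25a44 pair entered this count with a copy, slc25a44a, that passed the testing limit only through its treated libraries.

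The widest shift was in slc25a1, where copy a stood -2.34 ± 0.60 from copy b on the log2 scale in treated larvae and 4.43 ± 0.18 in control larvae (SD, n = 3 each; shift -6.77, SE 0.34, limma adjusted p = 5.83e-05). Copies of slc25a36 followed, with -0.35 ± 0.96 in treated and 5.06 ± 0.13 in control larvae (shift -5.41, SE 0.47, limma adjusted p = 0.000192). Copy slc25a36a supplied 62.6%, 36.9% and 33.0% of the pair's normalized counts in treated larvae and 97.4%, 97.0% and 96.9% in control larvae. In slc25a55 the shift was -4.82 (SE 0.36, limma adjusted p = 0.000134), and in slc25a38, where copy a gained, it was 4.06 (SE 0.35, limma adjusted p = 0.000192). In 5 pairs only 1 copy was called: slc25a15, slc25a23, slc25a25, slc25a47 and slc25a51. The slc25a47 pair (shift 1.76, SE 0.51, limma adjusted p = 0.0229) lost its call when control replicate 1 (0.052) or 3 (0.0691) was left out. The slc25a15 pair (1.79, SE 0.52, limma adjusted p = 0.0215) lost it when control replicate 1 (0.0549) or 2 (0.0623) was left out.

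**Figure D4:**
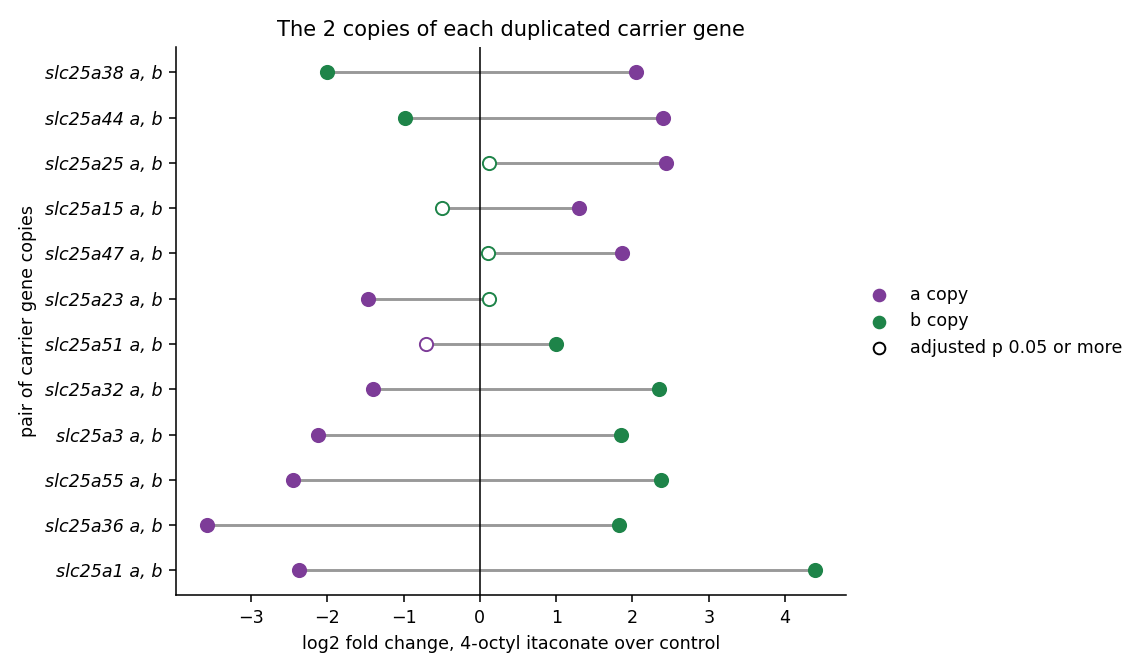
Log2 fold change (x axis, 4-octyl itaconate over control) of copy a and copy b of the 12 carrier gene pairs (y axis), joined by a line; open points did not pass an adjusted p of 0.05. In 7 pairs filled points lie on both sides of 0, with slc25a1 the widest apart, at -2.38 for copy a and 4.39 for copy b.

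In several carrier genes the treated libraries differed among themselves. Treated replicate 1 lay more than 2-fold outside the range of treated replicates 2 and 3 in 9 of the 56 tested members, which is 16.1%, against 11.4% of all tested genes. It was the higher library in 5 of them (ucp3, slc25a15a, slc25a36a, slc25a37 and slc25a55a) and the lower one in slc25a12, slc25a32b, slc25a34 and slc25a47b. Several marker lists also stood apart in treated replicate 1. Red blood cell markers took 0.504% of reads there, 0.219% in treated replicate 2 and 0.241% in treated replicate 3, with 0.0357% to 0.0473% in control libraries. Eye markers took 0.227% there, 0.0432% in treated replicate 2 and 0.0623% in treated replicate 3, with 0.583% to 0.950% in control libraries. In treated replicates 1, 2 and 3, hair cell markers took 0.0453%, 0.0289% and 0.0297%, and those of intestine and pancreas 1.25%, 0.973% and 0.731%. Skeletal muscle markers were lowest in treated replicate 1 (9.47%, 11.0% and 11.9%). Sums for heart (0.0112%, 0.00995% and 0.00889%) and liver (1.81%, 1.70% and 1.77%) were highest in treated replicate 1 by little. The part of these marker lists in the values of the 9 genes was not tested.

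Genes that work beside the carriers were read from 5 lists. Among all tested genes 35.0% were higher and 34.3% lower, which is the background for the counts of each list. Of 25 tested transporters of the mitochondrial membranes outside the carrier family, 15 rose and 4 fell, with a median log2 fold change of 0.80 beside 0.01 for all genes. Those that rose include mcu and slc8b1 (control means 8.49 and 6.27), which passed the testing limit of 10 only through their treated libraries. The outer membrane channel gene vdac2 rose 4.22-fold, with 25993, 27099.7 and 30571 normalized counts in treated and 6469, 6418 and 6917 in control larvae (limma adjusted p = 3.99e-06). The gene tspo, for an outer membrane protein that binds cholesterol, rose 4.00-fold (limma adjusted p = 1.8e-05), and micu3a, a brain-enriched regulator of calcium uptake in mammals, fell 8.72-fold (limma adjusted p = 3.21e-06). Without treated replicate 1 the counts were 17 and 4.

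Of 12 enzymes of the malate-aspartate and glycerol phosphate shuttles, which use slc25a11 and slc25a12 or bypass them, 11 rose (median 1.39), and the other gene, got1l1, was scarce and did not pass (log2 fold change 0.66; limma adjusted p = 0.397). The glycerol phosphate dehydrogenase gene gpd1c rose 5.35-fold (limma adjusted p = 4.76e-06), gpd1a 7.28-fold (5.6e-06) and gpd1b 3.97-fold (2.08e-05). Of 13 tested genes of citrate use and the carnitine shuttle, 6 rose and 3 fell (median 0.33), or 8 and 3 without treated replicate 1. The malic enzyme genes me1 and me2, which make cytosolic or mitochondrial pyruvate from malate, rose 20.4-fold and 7.21-fold, and acacb, whose product restrains fatty acid entry, rose 3.53-fold (limma adjusted p = 9.49e-06, 4.23e-06 and 1.12e-05).

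Of 14 tested enzyme genes of the urea cycle and of glutamate and proline use, partners of slc25a15a and the glutamate carriers, 8 rose and 3 fell (median 1.54), or 8 and 4 without treated replicate 1. Those that rose include gls2a (control mean 1.48), which passed the testing limit of 10 only through its treated libraries. Those that fell include nags (treated mean 9.66), which passed it only through its control libraries. Of the urea cycle genes in this list, only arg2 rose (log2 fold change 2.29), while nags fell (-2.69). The genes otc (-1.54), asl (0.19) and arg1 (0.40) did not pass, and cps1 was too low to be tested. The proline breakdown gene aldh4a1 rose 19.1-fold (limma adjusted p = 4.77e-06), the ornithine aminotransferase gene oat 16.1-fold (4.32e-06) and the glutamate dehydrogenase gene glud1a 5.67-fold (3.45e-06). Of 13 tested heme and iron-sulfur enzyme genes, whose products use the imports of the mitoferrins and of slc25a38, 9 rose and 2 fell (median 0.82), or 10 and 2 without treated replicate 1. The first enzyme gene of heme synthesis, alas1, had 2068, 6299 and 3605 normalized counts in treated and 699.8, 653 and 715 in control larvae, 5.79-fold higher, and urod and hmbsa rose 9.05-fold and 2.05-fold (limma adjusted p = 0.000246, 5.66e-06 and 0.000636).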

How the data were processed

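Messenger RNA libraries of 6 samples, 3 treated and 3 control, were read from 1 table. As deposited by the authors, its signal values are gene counts divided by a factor of each library. The submitters' processing notes name Salmon 1.9.0, STAR 2.7.10a, DESeq2, fastp 0.23.2, bcl2fastq 2.20.0.422 and build GRCz11, without their roles; filters and the handling of reads shared between genes are, like strand, not given in the sources used here. No protein or promoter sequence was used here.

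Dividing each library by its smallest step gave whole reads (within 0.01) for 100% of values. Genes averaging 10 or more were tested as log2(value + 1) with limma 3.58.1 under R 4.3.3 (no covariate, intensity trend, two-sided, Benjamini-Hochberg over all tested genes). A log2 fold change is the treated mean minus the control mean of these log values, so low genes appear to change less than they did; folds are ratios of group means. In groups of 3 an exact permutation p cannot go below 0.1. The code was tested on simulated data. For copies a and b, the fit over the 12 carrier pairs alone also passed all 12. Alternatives were the pseudocount, filter, scaling, limma options, replicate block, each library left out, and edgeR 4.0.16 or DESeq2 1.42.0 on recovered reads. Across genes, libraries correlated at 0.928 to 0.972 within treated, 0.971 to 0.974 within control and 0.672 to 0.731 between groups (Pearson).

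The members, role groups and gene lists were chosen with earlier results of these data known. The named-gene rule took all uncoupling, citrate, dicarboxylate, oxoglutarate, phosphate and ADP/ATP carriers, the genes leading each role group, the pairs that passed and 3 genes of each associated list; members beyond it are given with their values or ranges, and 1 tested member, which stays in all counts, is not reported here.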

Additional observations from a re-analysis of the deposited data

How the results depend on the processing

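Over 19 alternatives the higher members numbered 24 to 32 and the lower ones 13 to 19, with 5243 to 8493 higher and 5693 to 8888 lower genes in all. With each library left out in turn the members numbered 26 to 30 and 14 to 16, with 6327 to 7488 and 6148 to 7415 genes in all. The block for the replicate number gave 29 and 15, but same-numbered libraries did not deviate together (correlations of -0.02, -0.06 and 0.05, with 1 of 3 treated libraries closest to its own number). With 3 libraries per group this check cannot exclude that libraries of the same number belong together. By edgeR and by DESeq2 on recovered reads 31 members were higher and 15 lower. Among all genes edgeR gave 7335 higher and 6698 lower, and DESeq2 gave 7223 and 6844. The median log2 fold change of members, 0.88, was 0.44 with scaling to genes not mitochondrially encoded, which moves the median of all genes by -0.44; upper-quartile scaling moves it by 0.32, and members stood 0.70 to 0.87 above all genes in the scalings tried. Leaving out libraries gave medians of 0.68 to 0.97. In the fit over all pairs, 12 of 12 carrier pairs passed under every setting tried except quantile normalization (11, without slc25a23) and the omission of control replicate 1 (10), 2 (11) or 3 (11); the fit over the 12 carrier pairs alone gave 11 under quantile normalization and 12 with each library left out. Of 827 values for 44 named members, 786 kept direction and call, 22 lost the call, 7 gained it and 12 changed sign. Sign changes were in 3 scarce genes that did not pass. Quantile normalization gave -0.29 for slc25a23b, -0.30 for slc25a25b and -0.43 for slc25a47b, and scaling to genes not mitochondrially encoded gave -0.31, -0.31 and -0.30. With single libraries left out, slc25a23b ran between -0.21 and 0.33, with -0.0044 without control replicate 2. On the same basis slc25a25b was -0.26 without control replicate 2, and slc25a47b ran between -0.19 and 0.66, with -0.15 and -0.18 without treated replicate 3 and control replicate 2. The cause was not tested. Genes under about 50 normalized counts, such as slc25a37 and slc25a29, rest on few reads.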
